A study of Mus musculus with 18 samples.

Results

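T cell receptor alpha and beta V segments, named Trav and Trbv in the mouse, were followed in tissues of irradiated mice that received bone marrow with or without T cells. The members were every row of the gene count table with a Trav or Trbv symbol and at least 5 counts over all 18 libraries, which gave 78 of 163 V rows, or 56 of 128 Trav and 22 of 35 Trbv rows, in a table of 53379 genes. The series compared 2 treatments at day 7 in 3 tissues, with 3 libraries each. BMT mice were lethally irradiated female BALB/cJ mice aged 6 to 8 weeks that received 10000000 bone marrow cells together with 1000000 T cells. BM mice had the same strain, sex, age and irradiation and received 10000000 bone marrow cells alone. The sources used here do not name the donor strain, and irradiated hosts can still hold T cells of their own.

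Each alpha beta T cell builds its receptor by joining 1 V segment to a J segment in the alpha chain locus, and a V, a D and a J segment in the beta chain locus, ahead of a constant region. The V segment encodes most of the variable domain and contributes the loops that touch the MHC molecule, so the mixture of V segments in a tissue describes which T cells are there. Rearranged V segments are transcribed at high level in T cells, while other cells of liver or gut epithelium leave both loci unrearranged.

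Liver libraries carry the code LIV. The titles and the library codes of both intestinal sets disagree, and the libraries are called here by their codes, SI (titled large intestine) and LI (titled small intestine). Region markers went with the codes, since the 6 SI-coded libraries had more of 8 out of 8 genes typical of small intestine than any LI-coded library, and the 6 LI-coded ones more of 6 out of 8 genes typical of large intestine. Replicates carry the numbers 6, 9 and 10 in BMT and 2, 4 and 5 in BM in every tissue. Depth was 18845483 to 25610937 counts per library, so 3 counts, taken as the limit that a count of 0 allows, stood for 0.117 to 0.159 CPM (counts per 1000000). Summed hepatocyte markers were 148021 to 166795 CPM in LIV BMT and 123107 to 175945 CPM in LIV BM libraries, and epithelial markers were 10552 to 13928 CPM in the intestinal libraries.

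The sequences of these segments at the junction are shown for some of the leading members and for Trbv23, whose usage is described below. They are also shown for a pair that held most of the Trav counts in BM. Each line is the last 60 bases of the V exon, 5′ to 3′, up to the point where recombination joins it to the next segment, with the codon of the conserved second cysteine in capitals. Sequences and positions are those of the GENCODE M21 transcripts on GRCm38, + strand.
Trbv16, chr6:41152171-41152230: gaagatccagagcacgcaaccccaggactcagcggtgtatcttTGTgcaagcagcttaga
Trbv26, chr6:41227934-41227993: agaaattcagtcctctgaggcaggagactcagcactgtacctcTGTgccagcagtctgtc
Trbv13-1, chr6:41116409-41116468: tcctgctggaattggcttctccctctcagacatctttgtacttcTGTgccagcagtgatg
Trbv3, chr6:41048769-41048828: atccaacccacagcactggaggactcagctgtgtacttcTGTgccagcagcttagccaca
Trbv23, chr6:41216467-41216526: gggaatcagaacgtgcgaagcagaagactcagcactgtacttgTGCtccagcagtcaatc
Trav16n, chr14:53351562-53351621: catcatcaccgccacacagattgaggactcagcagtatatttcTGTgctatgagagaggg
Trav3-3, chr14:53666447-53666506: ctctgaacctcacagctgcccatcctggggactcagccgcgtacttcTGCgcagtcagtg
Trav12-2, chr14:53616855-53616914: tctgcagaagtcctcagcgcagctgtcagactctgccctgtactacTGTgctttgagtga
Trav15-1-dv6-1, chr14:53560188-53560247: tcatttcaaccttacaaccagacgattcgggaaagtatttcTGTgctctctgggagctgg
Trav15-2-dv6-2, chr14:53649935-53649994: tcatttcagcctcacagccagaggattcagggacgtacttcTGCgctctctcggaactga

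No 100-base window of any Trbv member, the length of 1 read, occurred in another V transcript, although some printed Trbv lines share shorter stretches. The Trav locus (chr14:52427928-53977678) is different, since part of it is present in near-identical copies marked by d or n in the symbol. Among Trav members a median of 9.80% of the 100-base windows occurred in another V transcript, against 100% among Trav rows under 5 counts. Rows without d or n were members in 39 of 55 cases, rows with d in 9 of 39 and rows with n in 8 of 34. The Trav16 copies show how little separates some of them. Their last 150 bases are printed with each difference from Trav16n in capitals.
Trav16n, chr14:53351472-53351621: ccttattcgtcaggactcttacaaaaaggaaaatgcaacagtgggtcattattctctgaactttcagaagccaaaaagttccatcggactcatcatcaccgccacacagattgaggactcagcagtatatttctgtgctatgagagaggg
Trav16, chr14:53743556-53743705: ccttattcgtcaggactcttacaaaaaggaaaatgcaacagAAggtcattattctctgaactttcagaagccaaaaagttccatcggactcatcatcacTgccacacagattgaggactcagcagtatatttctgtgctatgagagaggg
Trav16d-dv11, chr14:53047672-53047821: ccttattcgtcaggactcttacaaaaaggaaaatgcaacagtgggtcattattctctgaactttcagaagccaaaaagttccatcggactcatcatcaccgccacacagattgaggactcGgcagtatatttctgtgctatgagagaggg

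Over 301 compared bases Trav16 was 98.7% and Trav16d-dv11 99.0% identical to Trav16n, with 4 and 3 differing bases. The sources used here do not say how reads that match several copies were counted, so the split between copies is uncertain. Trav11 and Trav11d, the alpha segments of invariant natural killer T cells, had 99.6% and 100% of their windows in another transcript and were at 0 counts in all 18 libraries.

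**Figure D1:**
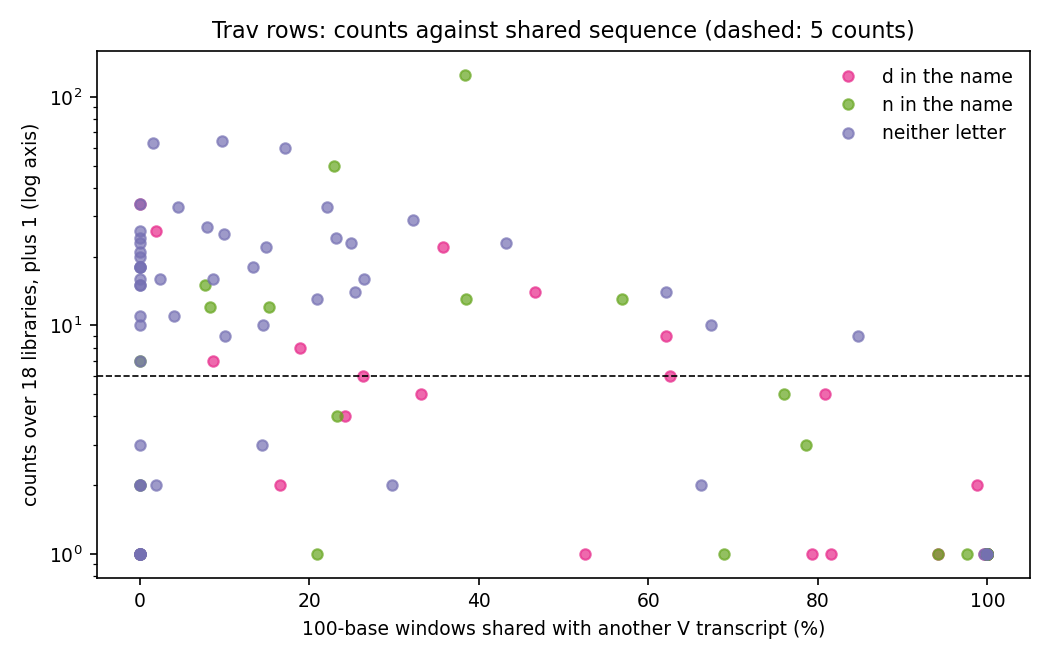
Counts of the 128 Trav rows over 18 libraries (plus 1, log axis) against the percentage of their 100-base windows found in another V transcript. Points are rows, coloured by the letter d or n in the symbol, and the dashed line marks 5 counts. Rows whose sequence is wholly shared lie at or near 0 counts.

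V segment transcripts were abundant where T cells had been given and near the detection limit where they had not. The 9 BMT libraries held 3992 member counts and the 9 BM libraries 72. In liver the members summed to 143, 138 and 90 counts in BMT, against 11, 4 and 11 in BM. SI-coded BMT libraries had 301, 557 and 408 counts, against 9, 2 and 10 in BM. LI-coded BMT libraries had 963, 882 and 510 counts, against 5, 8 and 12 in BM. No BMT library came near a BM library in any tissue, and among BMT libraries every LI-coded value but that of number 10 was above every SI-coded value, with liver lowest.

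Pooled over libraries, the members stood 13.3-fold higher in BMT than BM in liver (95% interval 8.92 to 20.6), 58.6-fold higher in SI (38.2 to 95.01) and 96.9-fold higher in LI (65.5 to 150). Intervals here and below cover counting error only. Both chains took part. In liver Trav summed to 76 counts in BMT and 6 in BM (11.8-fold) and Trbv to 295 and 20 (13.7-fold). In SI Trav summed to 346 counts in BMT and 9 in BM (37.4-fold) and Trbv to 920 and 12 (74.5-fold). In LI Trav summed to 736 counts in BMT and 8 in BM (94.7-fold) and Trbv to 1619 and 17 (98.0-fold). In these bulk fractions, fewer T cells and less receptor RNA per T cell cannot be told apart.

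The number of different segments seen went the same way. Liver BMT libraries held 44, 29 and 30 of the 78 members, against 8, 4 and 7 in BM. SI-coded BMT libraries held 55, 57 and 57, against 7, 2 and 6 in BM. In LI the BMT libraries held 77, 69 and 64 members, against 5, 6 and 8 in BM. Of the 78 members, 53 had no count in any BM library and 15 were present in all 9 BMT libraries, 13 of them Trbv and 2 Trav (Trav16n and Trav3-3). Some of the 25 members with a BM count rested on a single count, such as Trav3-3 with 1 count in SI.

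**Figure D2:**
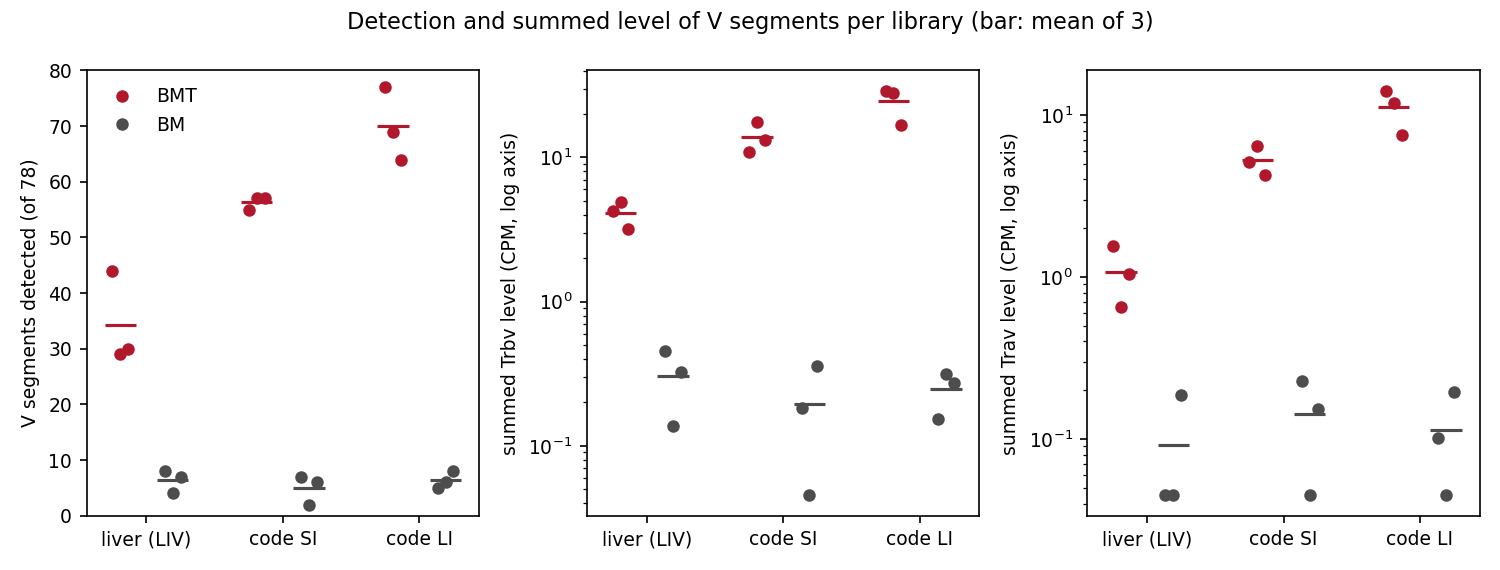
Members detected (left), summed Trbv level (middle) and summed Trav level (right, both in CPM on log axes) in each library of BMT and BM mice, by tissue. Points are libraries and bars are means of 3. BMT libraries held 29 to 77 members and BM libraries 2 to 8, with no overlap in any tissue.

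Detection depends on how many V counts a library holds. When each BMT library was thinned to 90 member counts, the total of the shallowest, liver libraries held 36.4, 25.0 and 30.0 members, SI-coded libraries 34.7, 32.5 and 32.5, and LI-coded libraries 37.2, 35.4 and 35.9. At that depth the LI- and SI-coded libraries were a few members apart, at 35.4 to 37.2 and 32.5 to 34.7, and liver number 9 was the lowest library. The same thinning can be set against BM. BMT libraries thinned to the counts of a BM library were expected to show more members than that BM library held in 6 of 9 cases, and fewer in 3 of 9. LI BMT libraries thinned to 12 counts gave 9.94 to 9.99 members, against 8 in LI-coded BM number 5, and liver BMT libraries thinned to 4 counts gave 3.68 to 3.798, against 4 in liver BM number 4. BM libraries held 2 to 12 counts each, and a difference in breadth beyond the number of counts was not tested.

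**Figure D3:**
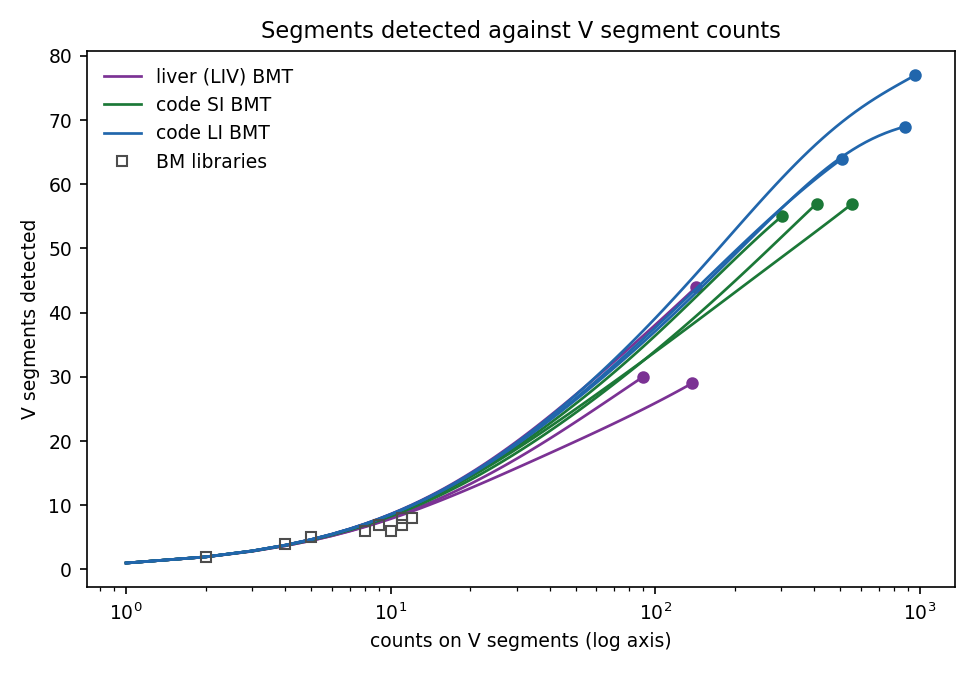
V segments expected when each BMT library is thinned to fewer V segment counts (lines, x axis on a log scale), with its full total (filled circles) and the 9 BM libraries as they are (open squares). At 90 counts the BMT lines lie between 25.0 and 37.2 segments, and the BM libraries, at 2 to 12 counts, lie close to the start of the same curves.

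Across all genes with at least 5 counts, the same minimum as for the members, 8.76% were higher in all 3 BMT than in any BM library in liver, 11.6% in SI and 18% in LI, while 17, 16.5 and 19.6% were lower in all 3. Of the 78 members, 14 were higher in this way in liver (12 Trbv, 2 Trav), 38 in SI (18 Trbv, 20 Trav) and 57 in LI (19 Trbv, 38 Trav), and 0 were lower in any tissue. In liver the Trbv share was well above that background, while 2 of 56 Trav members was below it. Liver BMT libraries held only 16 to 38 Trav counts spread over 12 to 25 segments, so many Trav members had 1 count or none there. Since nearly all member counts came from BMT libraries, these counts describe the members and are not a test of them.

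A test of single segments was possible only for the most abundant ones. edgeR's quasi-likelihood test, fitted over all genes with Benjamini-Hochberg adjustment, called 7.46% of genes higher in BMT in liver, 11.6% in SI and 20.4% in LI, and 3.35, 11.8 and 21% lower. The expression filter kept 1 member in liver, 9 in SI and 15 in LI, and each of them was called higher. These members passed the filter through the BMT libraries alone, so that their being called carries no weight as a group. Log2 fold changes below are edgeR's with their standard errors, and where BM had no count their size depends on the small count edgeR adds, so a bound against 3 counts over the BM group is also given.

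Trbv16 was the member called in all 3 tissues. It had 14, 14 and 14 counts in liver BMT, against 0, 0 and 1 in BM, a 39.1-fold ratio (6.64 to 1580). Its liver log2 fold change was 5.02 ± 0.70 (SE, n = 3 each, edgeR adjusted p = 0.00535). In SI it had 24, 48 and 31 counts in BMT and none in BM, at least 33.4-fold higher (log2 8.09 ± 0.84, edgeR adjusted p = 0.000186). In LI it had 71, 66 and 41 counts in BMT, against 0, 0 and 1 in BM (log2 7.05 ± 0.60, edgeR adjusted p = 8.91e-06).

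Trbv26 had the most Trbv counts in LI and none in any BM library. It had 84, 66 and 45 counts in LI BMT, at least 66.9-fold higher than BM (log2 9.04 ± 0.72, edgeR adjusted p = 2.46e-05). In SI it had 10, 23 and 34 counts in BMT, at least 21.7-fold higher (log2 7.47 ± 1.06, edgeR adjusted p = 0.00113). In liver it had 7, 9 and 5 counts in BMT, at least 6.52-fold higher, and did not pass the filter.

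The Trbv13 family, 3 segments that lie close together and are used by many conventional and by invariant T cells, was prominent as well. Trbv13-1 had 39, 55 and 29 counts in LI BMT, against 0, 1 and 1 in BM (log2 5.73 ± 0.57, edgeR adjusted p = 2.59e-05). In SI it had 7, 37 and 43 counts in BMT and none in BM, with number 6 far below the others. Trbv13-2 had 47, 37 and 34 counts in LI BMT, against 0, 0 and 1 in BM (log2 6.47 ± 0.61, edgeR adjusted p = 1.87e-05). It had 199 counts over the 9 BMT libraries and 8 over the 9 BM libraries, the most of any Trbv member in BM.

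Trbv3 had 61, 46 and 23 counts in LI BMT, against 0, 0 and 2 in BM (log2 5.81 ± 0.70, edgeR adjusted p = 0.000100). In SI it had 22, 23 and 12 counts in BMT, against 1, 0 and 0 in BM (log2 5.40 ± 0.79, edgeR adjusted p = 0.000715). Trbv29 had 17, 33 and 37 counts in SI BMT, against 0, 0 and 4 in BM (log2 4.30 ± 0.76, edgeR adjusted p = 0.00221), and the 4 counts of number 5 were the most that any Trbv segment had in a BM library. Trbv13-3, Trbv14, Trbv17 and Trbv19 were called in both SI and LI, and Trbv1, Trbv12-1, Trbv15 and Trbv31 in LI. The log2 fold changes of all called members ran between 4.02 (Trbv13-2 in SI) and 9.04 (Trbv26 in LI).

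Trav counts were fewer than Trbv counts, 1158 against 2834 over the BMT libraries, and spread over more segments. Many Trav members share 100-base windows with other V transcripts and Trbv members do not. What this did to the counts of either chain was not tested. Trav16n led the Trav members, with 25, 36 and 13 counts in LI BMT and none in BM, at least 25.4-fold higher (log2 7.64 ± 0.95, edgeR adjusted p = 0.000326). It had 7, 20 and 15 counts in SI BMT and 3, 3 and 2 in liver BMT, with none in BM in either tissue. Trav3-3 had 17, 17 and 7 counts in LI BMT, 4, 8 and 6 in SI BMT and 1, 1 and 1 in liver BMT. Trav12-2 had 7, 18 and 14 counts in LI BMT, 3, 11 and 7 in SI BMT and 1, 1 and 0 in liver BMT, with none in BM. Trav14n-3 had 17, 12 and 1 counts in LI BMT and 11, 4 and 1 in SI BMT, so number 10 was low in both. Trav1, the alpha segment of mucosal-associated invariant T cells, had 19 counts over the BMT libraries, in 6 of 9, and none in BM.

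One segment ran against the rest. Trav15-1-dv6-1 was the 1 member with no count in any BMT library, and it had 3 counts in liver BM number 5, 2 and 1 in SI-coded BM numbers 2 and 4, and 4 in LI-coded BM number 5. Its relative Trav15-2-dv6-2 had 6 counts over the BMT libraries and 4 over the BM libraries, and in liver 3, 0 and 0 counts in BMT, against none in BM. Together they made up 6 of 1158 Trav counts in BMT (0.518%) and 14 of 23 in BM (60.9%), a share that describes segments put together after their BM counts were seen. The symbols of both mark them as shared with the delta chain, which gamma delta T cells use. Trdc, the delta constant gene, had 1, 0 and 0 counts in liver BMT, against 1, 3 and 3 in BM. In SI it had 4, 4 and 3 counts in BMT, against 15, 5 and 15 in BM, and in LI 10, 8 and 3 in BMT, against 8, 2 and 12 in BM. Trdv rows, delta V segments without a Trav name, had 1, 2 and 0 counts in liver BMT, against 0, 0 and 0 in BM. They had 0, 1 and 3 in SI BMT, against 1, 2 and 0 in BM. In LI they had 4, 3 and 3 in BMT, against 0, 1 and 0 in BM. The 1 gamma V row (Trgv) had 17, 37 and 59 counts in SI BMT, against 4, 2 and 4 in BM. In LI it had 29, 44 and 68 in BMT, against 3, 6 and 4 in BM. Trdc did not pass the expression filter in any tissue, and the part of these genes in the counts of the pair was not tested. All 7 delta-shared members together had 129 counts in BMT and 15 in BM, 14 of the 15 from the pair.

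**Figure D4:**
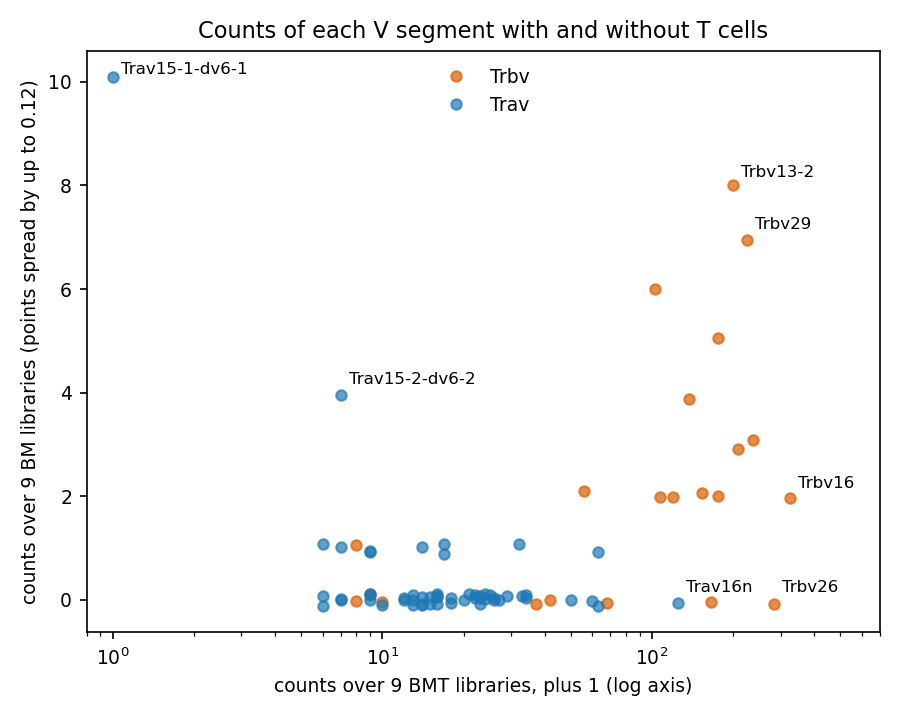
Counts of each of the 78 members over the 9 BMT libraries (x axis, plus 1, log scale) and over the 9 BM libraries (y axis). Points are members, coloured by chain. Trbv16 lies at 323 and 2 counts, Trbv26 at 283 and 0, and Trav15-1-dv6-1, at 0 and 10, is the member with more counts in BM than in BMT.

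Whether the BMT effect differed between tissues was fitted in 1 model over 18 libraries, in which 18 members passed the filter. Members without a BM count in the compared tissues had no usable standard error and could not be called, which left 12 members for liver and LI, 12 for liver and SI and 11 for SI and LI. Trbv13-3 alone was called, between liver and LI. It had 7, 8 and 1 counts in liver BMT, against 1, 1 and 2 in BM, and 32, 26 and 12 in LI BMT, against none in BM. The liver effect minus the LI effect was -5.32 ± 1.67 on the log2 scale (SE, edgeR adjusted p = 0.0480), a size that depends on the small count added to the empty LI BM group. Over all genes 8.13% had a smaller effect in liver than in LI and 10.6% a larger one, so 1 of 12 is near the background, and the call was lost when any 1 of the 6 numbers was left out. Between liver and SI 0 of 12 members were called, with an unadjusted p under 0.05 for 1, where 8.67% and 6.32% of genes were called in either direction. Between SI and LI 0 of 11 were called and 0 had an unadjusted p under 0.05, which says nothing of Trbv13-3, Trbv19, Trbv26, Trbv31, Trav16n, Trav14n-3 and Trav12-2, and 2.4% and 2.51% of genes were called.

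Usage, the share of a chain's member counts that falls on 1 segment, describes the mixture apart from its amount. No single Trbv segment dominated a BMT library. The leading segment held 11.5 to 20.6% of Trbv counts in liver, 11.7 to 13.96% in SI and 10.7 to 13.0% in LI. Effective numbers of segments, the exponent of the Shannon entropy, were 14.1 ± 2.1, 14.99 ± 0.77 and 15.9 ± 0.7 for Trbv in liver, SI and LI BMT libraries (SD, n = 3 each), of 22 members. For Trav they were 15.2 ± 6.3, 27.0 ± 0.9 and 35.7 ± 4.6 of 56 members, but when thinned to 16 Trav counts the libraries of all 3 tissues held between 11.3 and 13.4 Trav segments, a depth too shallow to show a difference in Trav breadth.

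Levels per kilobase of gene length adjust for length, but not for sequence shared between Trav copies. By this measure Trbv16 led in liver at 1.51 ± 0.13 CPM per kb and in SI at 3.90 ± 1.10. Trbv29 followed in both, at 1.21 ± 0.59 in liver and 3.69 ± 1.01 in SI, within the spread. In LI Trbv26 came first at 8.05 ± 2.20 CPM per kb and Trbv16 second at 6.78 ± 1.64, which differed by less than the SD. Trav16n led the Trav members in all 3 tissues, at 0.272 ± 0.038 CPM per kb in liver, 1.504 ± 0.588 in SI and 2.69 ± 1.20 in LI. At the low end Trbv4, Trbv5, Trbv24, which is annotated as a pseudogene, and Trbv30 had 7 to 9 counts each over the BMT libraries.

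**Figure D5:**
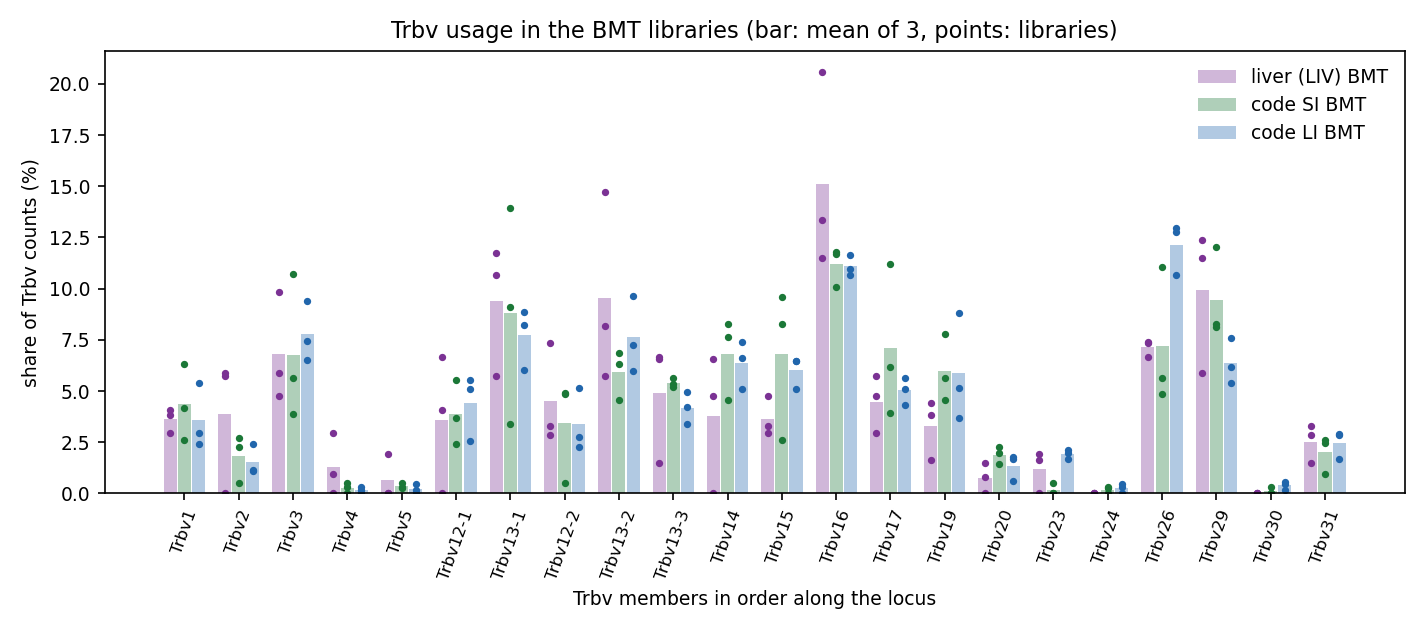
Share of Trbv member counts on each of the 22 Trbv members in BMT libraries of liver, SI and LI, in order along the locus. Bars are means of 3 libraries and points are libraries. Trbv16 held 10.1 to 20.6% in every library, and Trbv23 held 1.70 to 2.10% in LI but 0 to 0.488% in SI.

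Several well-known sets of segments were read from the usage. T cells that carry Trbv26, Trbv12-1, Trbv12-2, Trbv16 or Trbv15 react to superantigens of endogenous mammary tumour viruses and are largely deleted while they mature in BALB/c mice. These 5 segments held 29.5 to 38.2% of Trbv counts in liver BMT libraries, 27.8 to 35.6% in SI and 35.5 to 38.7% in LI. In BM they had 2, 1 and 1 of 10, 3 and 7 Trbv counts in the liver libraries, and 2, 1 and 1 of 3, 7 and 7 in LI. In SI BM they had 0 of 4, 1 and 7 Trbv counts. Those totals are too small to compare the BM shares with the BMT ones. The Trbv13 family held 18.1 to 27.9% in liver BMT libraries, 15.1 to 23.7% in SI and 18.2 to 21.3% in LI. The 3 Trav16 copies together held 9.09 to 21.1% of Trav counts in liver, 13.5 to 24% in SI and 14.6 to 19.0% in LI. For each of these sets the ranges of the tissues overlapped, narrowly so for the superantigen set in SI and LI.

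Usage of single segments in LI and SI BMT libraries mostly overlapped. Trbv23, singled out after its values were seen, had 11, 13 and 7 counts in LI, or 1.70, 2.10 and 1.99% of Trbv counts, against 1, 0 and 0 counts in SI. Trbv26 was higher in LI than in liver, at 10.7 to 13.0% against 6.67 to 7.38%, and overlapped with SI, where it held 4.88 to 11.04%. Trbv29 was lower in LI, at 5.40 to 7.59%, than in SI, at 8.11 to 12.01%. No test was made of these usage differences, which were picked out among 78 members.

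Usage was compared between libraries by the overlap of their shares, which is 1 for the same mixture. For Trbv the overlap was 0.858 to 0.869 between LI BMT libraries, 0.672 to 0.812 between SI and 0.670 to 0.821 between liver libraries. Trav overlap was 0.647 to 0.705 in LI, 0.523 to 0.577 in SI and 0.223 to 0.247 in liver, an order that followed the number of Trav counts. Libraries of the same number from different tissues were no more alike than others beyond a mean of 0.0286 for Trav and 0.0098 for Trbv. Along the locus, the 11 Trbv members with the lower coordinates held 51.9% of Trbv counts in liver, 48.5% in SI and 46.6% in LI BMT libraries, and the 28 Trav members with the lower coordinates 40.8, 46.0 and 45.0% of Trav counts.

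Other receptor genes were measured beside the V segments. All 7 constant and CD3 genes tested were called higher in BMT in each tissue by edgeR, with a median log2 fold change of 3.84 in liver, 5.26 in SI and 6.53 in LI, while the median of all genes tested was between -0.02 and 0.02. Of the T cell surface and signalling list 13 of 13 tested in liver, 14 of 14 in SI and 14 of 14 in LI were called higher. Trbv members gave 25.1 to 39.6 counts per 100 Trbc counts in liver BMT libraries, 38.9 to 45.5 in SI and 42.5 to 43.6 in LI, and Trav members 10.7 to 22.0, 18.5 to 23.7 and 21.5 to 22.9 per 100 Trac counts. In BM libraries the Trbv ratio was between 10 and 70, on 1 to 10 Trbv counts each, and the Trav ratio between 20 and 71.4, on 1 to 5 Trav counts each. All 3 liver BM libraries, at 33.3, 33.3 and 40 Trav counts per 100 Trac, lay above the liver BMT libraries. Those ratios rest on 1, 1 and 4 Trav counts over 3, 3 and 10 Trac counts, too few to read as a difference. Beta joining segments showed the same contrast, with 24, 23 and 37 Trbj counts in SI BMT, against 0, 1 and 1 in BM. In LI they had 55, 48 and 28 in BMT, against 0, 1 and 0 in BM. Alpha joining segments (Traj) were thinly counted, and 3 of 60 rows held 5 counts or more. They summed to 11, 5 and 9 counts in SI BMT, against 2, 2 and 2 in BM, a smaller contrast. In LI they summed to 18, 19 and 11 in BMT, against 0, 0 and 2 in BM. Of the recombination genes (Rag1, Rag2, Dntt and Ptcra) 0 of 4 passed the filter in any tissue.

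Markers of other lymphocytes summed to less than the constant and CD3 genes in every BMT library. In LI the sums of B cell, NK cell and gamma delta genes were nevertheless higher in BMT than in BM, without overlap. The 8 B cell genes summed to 1.55 to 2.55 CPM in liver BMT and 0.886 to 0.996 in BM. In SI the sums were 0.902 to 1.502 in BMT and 0.920 to 1.68 in BM. In LI they were 0.715 to 1.66 in BMT and 0.156 to 0.269 in BM. Of these genes 1 to 5 were at 0 in BMT and 0 to 6 in BM libraries. Cd22, the 1 B cell gene tested in liver, was called higher in BMT (log2 2.14 ± 0.42, edgeR adjusted p = 0.0174). It had 25, 41 and 40 counts in liver BMT, against 4, 12 and 9 in BM. Every other B cell gene had 8 counts or fewer in each liver library. In SI Cd79b alone was tested and was not called, and in LI 0 were tested. The 7 NK cell genes summed to 0.527 to 0.652 CPM in liver BMT and 0.317 to 0.746 in BM, to 1.22 to 2.44 in SI BMT and 0.0452 to 0.500 in BM, and to 3.15 to 5.86 in LI BMT and 0.458 to 0.820 in BM, with 4 genes at 0 in each LI BMT and 2 to 5 in the LI BM libraries. Of these NK genes, edgeR called Eomes higher in BMT in SI (log2 3.53 ± 0.77, adjusted p = 0.00719) and in LI (2.08 ± 0.45, adjusted p = 0.00385), and Klre1 in LI (5.34 ± 0.75, adjusted p = 0.000272), while Ncr1 was at 0 in all 6 intestinal BMT libraries. Beyond these values, the part of such cells in the V segment counts was not tested. The 5 gamma and delta constant genes summed to 0.365 to 0.611 CPM in liver BMT and 0.317 to 0.727 in BM, to 2.33 to 11.5 in SI BMT and 1.09 to 3.05 in BM, and to 6.87 to 7.92 in LI BMT and 1.12 to 1.80 in BM. Of them 0 passed the filter in liver, 1 in SI and 2 in LI. Tcrg-C2 was higher in BMT in SI (log2 3.20 ± 0.59, edgeR adjusted p = 0.00297) and in LI (log2 3.82 ± 0.38, edgeR adjusted p = 2.68e-05), and Tcrg-C1 in LI (log2 1.65 ± 0.41, edgeR adjusted p = 0.00856). Tcrg-C4, not tested in either, had 1, 10 and 25 counts in SI BMT, against 18, 3 and 6 in BM, and 7, 9 and 14 in LI BMT, against 5, 15 and 10 in BM.

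Around the minimum of 5 counts, Trav10d and Trav13d-4 had 5 counts over the 18 libraries and Trav6-1, Trav6d-4 and Trav13n-4 had 6. Just outside, Trav9d-1, Trav9d-4 and Trav9n-4 had 4 counts, and Trav6d-5, Trav9n-1 and Trbv21 had 3. Trbv21 was the 1 Trbv row annotated as a functional V gene that was not a member, since the other 21 of 22 were. Of 72 Trav rows below the minimum 56 had no count at all.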

How the data were processed

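The deposited table holds raw gene-level counts of 18 libraries, whole numbers that the authors did not normalize. Per the labels' protocols, polyA RNA went into a stranded kit and was read as pairs of 100 bases. Per the submitters' processing notes, FastQC 0.11.9, STAR 2.7.0e and featureCounts 1.6.3 were used with GRCm38.p5. The sources used here do not give the annotation release, the strand setting or the treatment of reads that match several places. Reads of BALB/cJ recipients and of donor cells, whose strain is not named, were aligned to a C57BL/6J genome. The treatment of reads that match several places and a difference in strain can both change counts of single V segments.

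Symbols and V transcripts came from GENCODE M21, whose coordinates equal those of the table for all 163 V rows. Symbols were found for 53274 of 53379 IDs. Each tissue was fitted with edgeR 4.0.16 in R 4.3.3 (expression filter by group, TMM, two-sided quasi-likelihood F-test, calls at a Benjamini-Hochberg adjusted p under 0.05 over all genes tested). A standard error is the log2 fold change over the square root of F. Differences between tissues came from 1 model of 18 libraries with the number in the library description as a block. Those numbers were read as pairing libraries from 1 mouse, from the descriptions alone, and deviations of same-numbered libraries correlated at -0.04 to 0.19. Groups followed the description codes. The labels do not state that replicates are separate animals, so p-values reflect only the spread among these libraries, which may be technical. Replicate pairs were not duplicates (chi-square per degree of freedom 9.86 to 187). Mitochondrial counts were 2.77 to 10.7% of counts and were lower in BMT than in BM in every tissue, without overlap. They were 2.77 to 3.08% in liver BMT and 4.22 to 5.26% in liver BM. In SI they were 4.83 to 6.01% in BMT and 7.30 to 8.63% in BM. In LI they were 6.24 to 7.46% in BMT and 9.72 to 10.7% in BM. The cause was not tested. On lane L001 ran 4 libraries, which were liver BMT number 9, liver BM number 5, SI-coded BMT number 9 and LI-coded BMT number 10. No intestinal BM library ran on that lane, so lane and treatment are partly confounded in SI and LI.

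Summed levels are CPM of all counts, usage is the share of a chain's member counts, a member is detected from 1 count, and share intervals are exact 95% binomial ones. DESeq2 1.42.0 and other alternatives are given in the closing section. On simulated counts with 200 changed genes, edgeR recovered 82.2%, 82.6% and 94.1% of 4-fold changes in liver, SI and LI, with 5, 7 and 3 false calls.

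The members and gene lists were chosen with earlier results of these data known. Segments could be named if they were among the 10 of each chain with most counts, were called, led a library's usage, belonged to a listed set (superantigen-reactive, invariant, constant, CD3, gamma delta and recombination genes), lay next to the minimum of 5 counts or were near-identical copies of these. Trbv23, Trbv4, Trbv5, Trbv24 and Trbv30 were named after their values were seen.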

Additional observations from a re-analysis of the deposited data

Results flagged for a closer look

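Trbv13-3 is given here because its BMT effect differed between liver and LI in the test of the difference itself. The value, liver minus LI, was -5.32 on the log2 scale (SE 1.67, edgeR adjusted p = 0.0480), with 7, 8 and 1 counts in liver BMT, against 1, 1 and 2 in BM, and 32, 26 and 12 in LI BMT, against none in BM. It was the 1 call among 12 members with a usable test of that difference. No group held 4 samples or more, so single libraries were not screened for distance from their group.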

How the results depend on the processing

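Of 178 alternative values of the main results 148 kept their direction and stayed close. All 325 alternative values of the 25 single-segment log2 fold changes kept their direction and their side of the threshold. Those 25 belong to members that passed the filter through the BMT libraries alone. Each alternative refits the same libraries or part of them, so their stability is no further support. Counts of members called higher were 1, 9 and 15 in liver, SI and LI. They were 5, 20 and 38 with DESeq2, which tests more of the thinly counted rows, 4, 24 and 50 without an expression filter, and 10 and 18 in liver and SI in 1 fit over 18 libraries. Leaving out 1 library at a time gave 1 to 2, 9 to 15 and 15 to 21, with 2 in liver without BMT number 10 and 15 in SI without BM number 2, 4 or 5. With the title number as a replicate block they were 1, 9 and 15, and those numbers did not pair the samples (correlations -0.12 to 0.24). With lane L002 alone, added after seeing the data, they were 1, 9 and 20. Shares of all genes called under these settings are not given here. The counts are therefore not set against a background, and they carry no weight as a group. The liver and LI difference of Trbv13-3 was called without the replicate block too (1 member), but in 0 members without any 1 of the 6 numbers, and the cause was not tested.

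The excess of detected members in BMT over BM, 28.0, 51.3 and 63.7, was 15, 31.3 and 53.3 at 3 counts, and 32.7 and 35.3 in SI and LI among members with 20 counts or more. Effective numbers in SI and LI were 20.5 and 26.7 (Trav) and 13.1 and 13.9 (Trbv) by inverse Simpson, and 21 and 24.02 for Trav with d and n copies summed. With copies summed the Trav overlap of same-numbered libraries turned to -0.0046 relative to others. Scaling by gene length, added after seeing the data, gave similar effective numbers. Depth limits BM most, at 2 to 12 member counts a library, and Trav in liver.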
